A study of Homo sapiens with 4 samples.

Results

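The genes described here encode proteins that move nucleosides across membranes or take phosphate off nucleotides: the equilibrative nucleoside transporters SLC29A1, SLC29A2 and SLC29A3, the 5′-nucleotidases NT5E, NT5C2, NT5C, NT5C3A and NT5M, and the deoxynucleotide hydrolase SAMHD1. They were chosen by gene symbol, and all 9 were found among the 18132 genes that the array's gene table names. They are read by 22 of the 49395 probe sets, a probe set being the group of short probes that together report 1 transcript region. The study used U87MG, an established human glioblastoma cell line, grown in medium with fetal bovine serum. Its cells were kept for 24 h with 10 µM mycophenolic acid (MPA) together with 100 µM guanosine, with 10 µM MPA alone, with 100 µM guanosine alone, or with DMSO as the control. Total RNA of each condition was hybridised to 1 PrimeView array, 4 arrays in all, so every difference compares 2 single arrays and has neither a replicate check nor a p-value.

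Purine nucleotides are built either from small precursors or from salvaged nucleosides and bases. MPA blocks IMP dehydrogenase, the step that commits IMP to guanine nucleotides. Guanosine supplied from outside can enter through a nucleoside transporter and then be salvaged. Nucleotidases work in the opposite direction and turn nucleotides back into nucleosides, which transporters of the equilibrative family can carry out of or into the cell along their gradient. The comparisons therefore ask whether the mRNAs of this entry and exit route differed when guanine nucleotide synthesis was blocked, and whether guanosine altered that.

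The largest differences among these genes were on the MPA array. SLC29A3, the nucleoside transporter of lysosomal and other inner membranes, was 1.65-fold higher with MPA than in DMSO control. NT5E, the cell-surface enzyme CD73 that makes adenosine from AMP outside the cell, was lower with MPA on all 3 of its probe sets, by 0.34, 0.29 and 1.09 on the log2 scale. NT5C3A, a pyrimidine nucleotidase, was 1.39-fold lower. When guanosine was present, the MPA difference of SLC29A3 and NT5C3A lay between -0.01 and 0.00 on the log2 scale. That of NT5E was -0.06, -0.36 and -0.04 on its 3 probe sets in the order above, so on the second of them it was no smaller than without guanosine.

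The promoters of SLC29A3 and NT5E are shown because 1 probe set of each gave the largest difference with MPA in its direction. Each sequence runs from 250 bases before the RefSeq transcript start to 50 bases after it on GRCh38.p14, 5′ to 3′ on the gene's strand. Capitals mark GC boxes, GGGCGG on either strand. The SLC29A3 window is chr10:71319009-71319308 on the plus strand and the NT5E window is chr6:85449833-85450132 on the plus strand.
SLC29A3: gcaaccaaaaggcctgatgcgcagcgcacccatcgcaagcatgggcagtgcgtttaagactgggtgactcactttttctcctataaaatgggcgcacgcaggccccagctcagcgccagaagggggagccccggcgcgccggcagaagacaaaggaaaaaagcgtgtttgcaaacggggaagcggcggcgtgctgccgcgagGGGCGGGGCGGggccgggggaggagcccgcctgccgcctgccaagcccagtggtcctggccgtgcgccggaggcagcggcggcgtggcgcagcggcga
NT5E: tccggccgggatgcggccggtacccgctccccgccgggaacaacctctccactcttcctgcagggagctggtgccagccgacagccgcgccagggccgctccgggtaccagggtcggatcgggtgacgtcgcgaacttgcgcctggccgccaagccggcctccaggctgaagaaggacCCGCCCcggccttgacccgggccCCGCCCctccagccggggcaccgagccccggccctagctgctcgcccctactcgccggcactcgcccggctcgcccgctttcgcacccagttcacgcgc
Both windows are rich in G and C, at 68.7% for SLC29A3 and 75% for NT5E, and each holds 2 GC boxes, which share 1 base in SLC29A3 and are separate in NT5E. A GC box was present in 45.0% of the 35116 promoter windows of this length in the table. The E-box CACGTG, found in 7.26% of all windows, the CCAAT box, in 34.6%, and the p53 half-site, in 6.63%, had no match on either strand of either window. RefSeq windows were found for 8 of the 9 genes, and SLC29A2 had none. A match is a description of the letters only.

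Signals were deposited as RMA intensities, and differences are given as log2 of 1 array's signal over that of another. A gene was represented by its brightest probe set, and _x_at probe sets, whose probes may cross-hybridise to other genes, were used only where a gene had no other. A gene was compared when the brighter of its arrays reached the median of all values, a signal of 63.0, called the floor. All 9 genes reached it in every comparison. Of the 22 probe sets, 15 were at or above the floor on all 4 arrays, 1 on 3 arrays and 6 on none.

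Of the U87MG markers measured, 7 of 7 were above the floor on all arrays. The brightest was VIM, at 18322 with MPA and 19783 in DMSO control. The dimmest was NES, at 142.3 with MPA and 220.7 in DMSO control. The deleted genes CDKN2A and MTAP were below the floor on all arrays. Of 21 markers of astrocytes, neurons, oligodendrocytes, leukocytes, endothelium and epithelium, 11 were below the floor on all arrays, among them all 4 leukocyte markers and the endothelial PECAM1 and CDH5. The other 10 reached the floor on at least 1 array. The astrocyte GFAP and SLC1A3 and the neuronal SYT1 and SNAP25 did so on all 4. The neuronal STMN2 did so on 3 arrays and RBFOX3 on 1, and the oligodendrocyte OLIG2 on 2. The endothelial VWF was above it on all arrays, at 110.7 with MPA and 93.6 in DMSO control, and the epithelial EPCAM only with MPA, at 102.2 against 55.5 in DMSO control. KRT8 was above it on 2 arrays. The summed signal of the 21 markers was 2314 with MPA + guanosine, 3056 with MPA, 2278 with guanosine and 2232 in DMSO control. Most of the higher sum with MPA came from SNAP25, at 1867 with MPA and 1144 in DMSO control. The 24 probe sets of the poly-A RNA spiked in before labelling read lower with MPA than in DMSO control by a median of 0.24 on the log2 scale, and higher by 0.22 with guanosine and by 0.24 with both. The part of these shifts in the values below was not tested. In bulk RNA, fewer cells carrying a transcript and less of it per cell cannot be told apart.

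SLC29A3 was highest on the MPA array. Its signal was 164.8 with MPA + guanosine, 258.4 with MPA, 164.4 with guanosine and 156.8 in DMSO control, so the MPA array stood apart and the other 3 lay close together. The log2 difference was 0.72 for MPA against DMSO control, 0.07 for guanosine against DMSO control and 0.07 for MPA + guanosine against DMSO control. With guanosine added to MPA it was -0.65 relative to MPA alone, a comparison that shares the MPA array with the first. The other SLC29A3 probe set was below the floor on all arrays, between 17.6 and 20.8, and differed by 0.09 with MPA, so the result rests on 1 probe set. Of the 9 genes it alone passed 1.5-fold for MPA against DMSO control, where 12.9% of the 10951 genes compared did so. In that comparison 884 genes differed from DMSO control at least as far as SLC29A3.

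SLC29A1 and SLC29A2, the transporters of the plasma membrane, differed less. SLC29A1, also called ENT1 and the main route of nucleoside uptake in many cells, had a signal of 115.5 with MPA + guanosine, 106.9 with MPA, 110.5 with guanosine and 123.4 in DMSO control. DMSO control was thus the highest of the 4, with an MPA difference of -0.21. Its _x_at probe set went the other way, at 83.3 with MPA + guanosine, 96.9 with MPA, 72.7 with guanosine and 75.1 in DMSO control, a log2 difference of 0.37 with MPA. The direction for SLC29A1 therefore depended on the probe set. SLC29A2, or ENT2, which also carries nucleobases, was at 81.6 with MPA + guanosine, 110.7 with MPA, 91.3 with guanosine and 97.8 in DMSO control. A second probe set of SLC29A2 kept the same order of arrays, at 83.6 with MPA + guanosine, 103.7 with MPA, 87.8 with guanosine and 95.4 in DMSO control. In SLC29A2 the lowest array was MPA + guanosine, at a log2 difference of -0.44 from MPA alone, -0.26 from DMSO control and -0.16 from guanosine alone. The second probe set gave -0.31, -0.19 and -0.07 in the same comparisons.

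**Figure D1:**
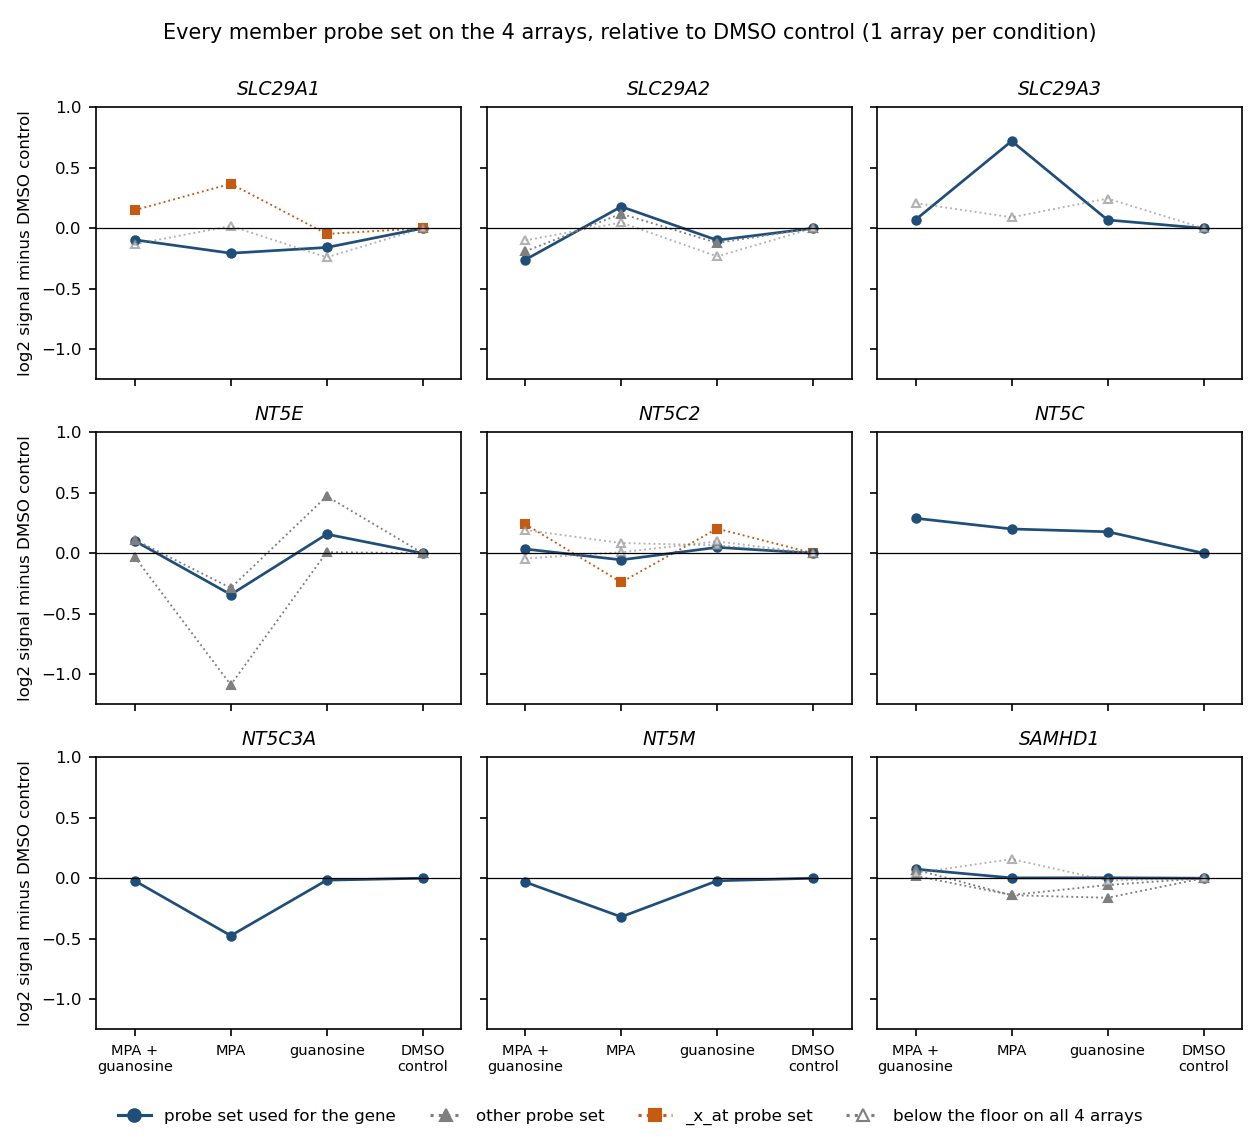
Log2 signal of each of the 22 probe sets minus its own DMSO control value (y axis) on the 4 arrays (x axis), 1 panel per gene and 1 array per condition. Filled circles are the probe set used for the gene, squares _x_at probe sets, triangles other probe sets, and open symbols probe sets below the floor on all 4 arrays. SLC29A3 peaks at 0.72 with MPA, and the 3 NT5E probe sets dip to between -0.29 and -1.09.

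NT5E was lower with MPA than on the other 3 arrays on each of its 3 probe sets. The probe set used for the gene had a signal of 5032 with MPA + guanosine, 3700 with MPA, 5230 with guanosine and 4690 in DMSO control. Probe set 11744681_a_at, at 429.8 with MPA + guanosine, 206.6 with MPA, 442.0 with guanosine and 439.2 in DMSO control, had the largest difference of any member probe set, 2.13-fold lower with MPA than in DMSO control. Probe set 11719174_a_at was at 519.7 with MPA + guanosine, 394.3 with MPA, 666.9 with guanosine and 481.0 in DMSO control. In all 3 the MPA array was the lowest, and the size of the MPA difference was not the same between them.

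With guanosine added to MPA, NT5E was higher than with MPA alone by 0.44, 1.06 and 0.40 on the log2 scale for the probe set used for the gene, 11744681_a_at and 11719174_a_at in turn. With guanosine alone against DMSO control, the same probe sets differed by 0.16, 0.01 and 0.47. The higher value with guanosine alone was thus mainly on 11719174_a_at, where both compounds together were 0.36 below guanosine alone. Which parts of the transcript the 3 probe sets read was not analysed here. Counted by probe set, 2 of the 16 compared passed 1.5-fold for MPA against DMSO control, SLC29A3 and NT5E at 11744681_a_at, where 12.2% of all probe sets with 1 gene symbol did. For MPA + guanosine against MPA the count was again 2 of 16, with 13.5% of all such probe sets. Both shares lie near the background of these comparisons.

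On the probe sets used, the nucleotidases inside the cell gave 3 kinds of pattern, and that of NT5C2 depended on the probe set. NT5C3A, which removes phosphate from pyrimidine monophosphates and is known for its loss in a hereditary hemolytic anemia, had 1 probe set, with a signal of 878.7 with MPA + guanosine, 641.8 with MPA, 882.0 with guanosine and 892.0 in DMSO control. The 3 arrays other than MPA were at most 0.02 apart on the log2 scale, and MPA was lower than DMSO control by 0.47, a difference that 2058 of 10951 genes equalled or passed. NT5M, the mitochondrial deoxynucleotidase, was at 68.4 with MPA + guanosine, 56.0 with MPA, 68.9 with guanosine and 69.9 in DMSO control. Its MPA value was below the floor and the others only just above it, for a measured log2 difference of -0.32.

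NT5C, the cytosolic deoxynucleotidase, was lowest in DMSO control. Its single probe set had a signal of 610.5 with MPA + guanosine, 574.2 with MPA, 565.2 with guanosine and 499.7 in DMSO control. All 3 treated arrays were above DMSO control, by log2 differences of 0.29, 0.20 and 0.18 in the order just given. The array with both compounds was the highest, 0.09 above MPA and 0.11 above guanosine.

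NT5C2, the cytosolic purine nucleotidase that prefers IMP and GMP, was nearly level on the probe set used for the gene, at 81.3 with MPA + guanosine, 76.4 with MPA, 82.1 with guanosine and 79.4 in DMSO control. A brighter _x_at probe set read 611.8 with MPA + guanosine, 438.6 with MPA, 596.4 with guanosine and 517.9 in DMSO control. On that probe set MPA was lowest, at a log2 difference of -0.24 from DMSO control against -0.05 for the probe set used, and guanosine was 0.20 above DMSO control against 0.05. The other 2 NT5C2 probe sets were below the floor on all arrays.

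SAMHD1 breaks deoxynucleoside triphosphates down to deoxynucleosides and is activated by GTP or dGTP binding. Its signal was 134.5 with MPA + guanosine, 127.9 with MPA, 128.0 with guanosine and 127.7 in DMSO control, a range of 0.07 on the log2 scale and the narrowest of the 9 genes. The other 2 SAMHD1 probe sets above the floor both differed by -0.14 with MPA and by 0.02 and 0.07 with MPA + guanosine, relative to DMSO control.

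As a group, 4 of the 9 genes were higher and 5 lower with MPA than in DMSO control, with a median log2 difference of -0.05 beside 0.00 over all genes. Counted by probe set, 6 of 16 were higher and 10 lower, with a median of -0.14 beside -0.01 over all probe sets with 1 gene symbol. With _x_at probe sets treated like the others, the median of the 9 genes was -0.21. All 9 genes lay inside the middle 95% of genes, which ran from -0.88 to 0.85. For guanosine against DMSO control 0 of 9 passed 1.5-fold, beside 0.497% of 10663 genes, and the members ran from -0.16 for SLC29A1 to 0.18 for NT5C. For MPA + guanosine against DMSO control 0 of 9 passed, beside 0.637% of 10672 genes, with SLC29A2 at -0.26 and NT5C at 0.29 as the ends. For MPA + guanosine against MPA 1 of 9 passed, SLC29A3, beside 13.6% of 10956 genes, and 7 of 9 were higher, beside 52.0% of all genes. NT5C3A was highest on the probe sets used, at 0.45, while NT5E probe set 11744681_a_at was at 1.06. For MPA + guanosine against guanosine 0 of 9 passed, beside 0.0189% of 10599 genes, with a range of -0.16 to 0.11. The comparisons against DMSO control share that array. For MPA against DMSO control and for MPA + guanosine against MPA, the members' shares past 1.5-fold stand near the background. Where 0 of 9 passed, so few of all genes did that the count says little.

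**Figure D2:**
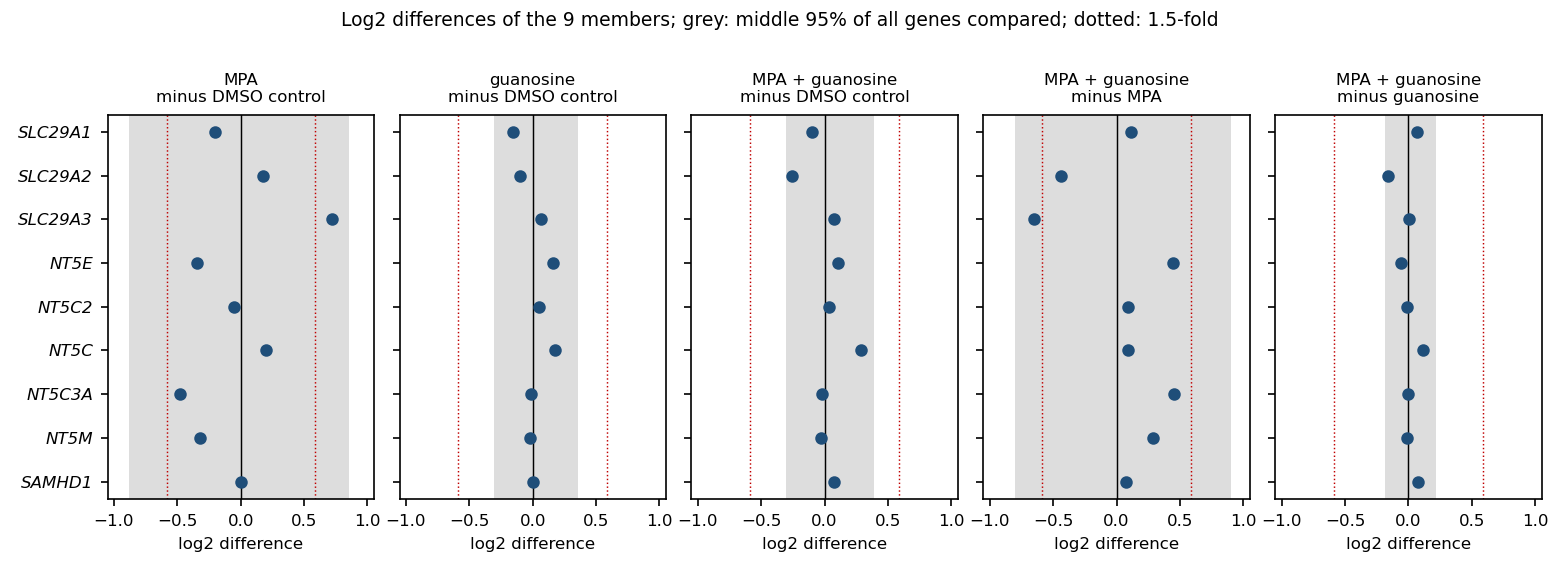
Log2 difference (x axis) of each of the 9 genes (y axis) in the 5 comparisons, 1 panel each, as the first-named array minus the second. Grey bands hold the middle 95% of all genes compared and dotted lines mark 1.5-fold; all points lie inside the bands, and SLC29A3 passes 1.5-fold in the panels MPA minus DMSO control and MPA + guanosine minus MPA.

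The MPA difference can be read with and without guanosine on 4 separate arrays. With guanosine present, it was 0.00 for SLC29A3, -0.01 for NT5C3A, -0.01 for NT5M and -0.06 for NT5E, against 0.72, -0.47, -0.32 and -0.34 without guanosine, on the probe sets used for the genes. NT5E probe set 11719174_a_at went against this, at -0.36 with guanosine and -0.29 without, while 11744681_a_at was at -0.04 with guanosine and -1.09 without. On the probe sets used, SLC29A2 was furthest from 0 when guanosine was present, at -0.16, against 0.18 without it. A SAMHD1 probe set at 0.23 and the _x_at probe set of SLC29A1 at 0.20, both above the floor, lay further from 0 than SLC29A2. NT5C was higher with MPA in both settings, by 0.11 with guanosine and 0.20 without. Over all genes the SD of the MPA difference was 0.0979 with guanosine and 0.418 without, so the spread over all genes was also narrower with guanosine. With 1 array per condition the difference between the 2 settings could not be tested.

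**Figure D3:**
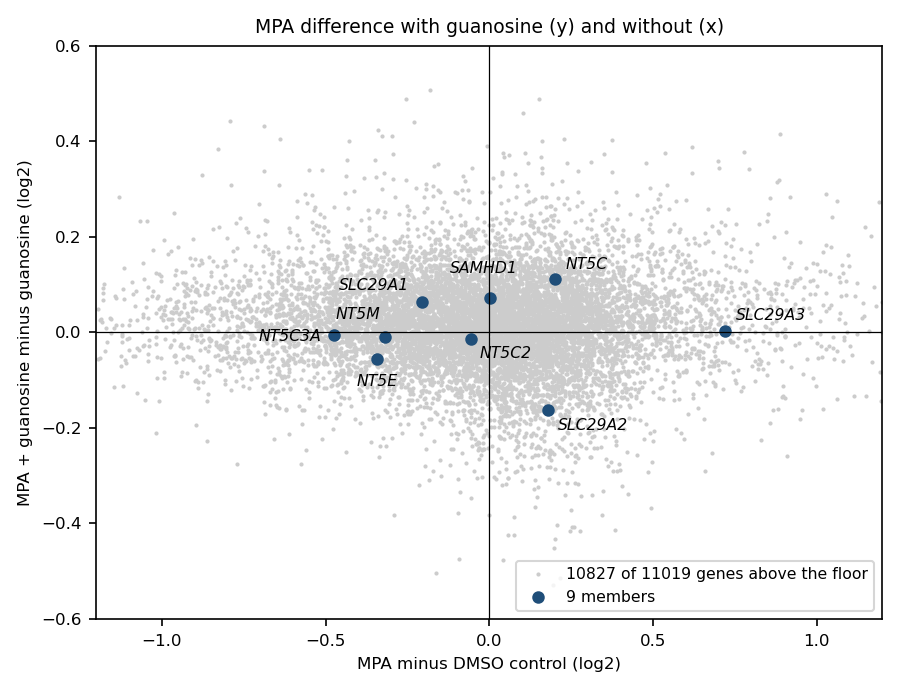
MPA + guanosine minus guanosine (y axis, log2) against MPA minus DMSO control (x axis, log2), with the 9 genes as labelled points and 10827 of the 11019 genes above the floor in grey; 192 genes lie beyond the axes. The members spread from -0.47 to 0.72 along x and from -0.16 to 0.11 along y.

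The 3 genes most like SLC29A3 in their log2 differences from DMSO control, by Euclidean distance over the 3 treated arrays among 11019 genes, were FHL2, NQO1 and IRF9. Their distances were 0.0416, 0.0437 and 0.0503. FHL2 differed by 0.69 with MPA, NQO1 by 0.74 and IRF9 by 0.67, and all 3 lay between 0.03 and 0.08 with guanosine or with both compounds. This likeness rests on 4 arrays that the genes share.

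Other genes of the same pathway were read from 8 lists with 68 genes, of which 65 were measured and 44 were above the floor. With MPA 5 of the 44 were at least 1.5-fold lower than in DMSO control and 1 at least 1.5-fold higher, 30 were lower in all, and the median was -0.10. Over all genes 12.9% passed 1.5-fold in either direction, 592 of 10951 higher and 824 lower, and 49.7% were lower. Of the 44 genes, 34 had another probe set above the floor, and in 12 of these at least 1 such probe set had the opposite sign to the value used. Transporters outside the SLC29A family were led by SLC43A3, a purine nucleobase transporter, at 781.5 with MPA and 1383 in DMSO control, a log2 difference of -0.82, with -0.75 on its other probe set. The nucleotide exporter gene ABCC5 was highest there at 0.36, and its 2 other probe sets above the floor gave 1.33 and 0.54. The concentrative transporters SLC28A1, SLC28A2 and SLC28A3, which pull nucleosides in with sodium, and SLC29A4 were below the floor on all arrays.

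Nucleoside kinases, which trap an imported nucleoside by phosphorylating it, were lower with MPA in 8 of 8 cases on the probe sets used. Their median was -0.30, and 49.7% of all genes were lower. For 2 of them another probe set above the floor was higher, UCKL1 at 0.14 and TK2 at 0.12. UCK2, the uridine and cytidine kinase, was at -0.69, but a second probe set, also above the floor, gave -0.04. DCK, the deoxycytidine kinase that also accepts deoxyguanosine, was at 457.9 with MPA and 718.0 in DMSO control, a log2 difference of -0.65, and its 4 other probe sets above the floor were also lower, from -0.31 to -0.65. UCK1 was nearest to 0 at -0.06. TK1 was at -0.23 with MPA, but also at -0.27 with guanosine alone and -0.26 with both compounds, relative to DMSO control. Its lower value was thus not particular to the MPA array.

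Among enzymes that break nucleosides and bases down, 4 of 5 were lower on the probe sets used, beside 49.7% of all genes. Past 1.5-fold were 0 of 5, beside 12.9%. AMPD2 was lower at -0.06, but its 3 other probe sets above the floor were higher, whereas the 4 others of AMPD3 were lower like the one used. TYMP was not compared, as its MPA signal of 62.7 was just below the floor, against 38.8 in DMSO control, a log2 difference of 0.69. Its _x_at probe set, which did reach the floor, gave 0.22. PNP, which splits guanosine and inosine into base and sugar phosphate, was lowest at -0.47, and ADA, the adenosine deaminase, highest at 0.46. PNP was also lower with guanosine alone, at -0.29, and with both compounds, at -0.19, than in DMSO control, on 1 probe set. Cell-surface and related nucleotide hydrolases other than NT5E divided evenly on the probe sets used, 4 higher and 4 lower. Of the lower ones, ENPP1 (0.49 and 0.34), ACP3 (0.32) and ENTPD4 (0.17) had other probe sets above the floor that were higher. Among the higher ones, ENTPD6 had 2 that were lower, at -0.08 and -0.24. ENTPD7 was lowest there at -0.75, with its MPA value below the floor, and ENPP2, which encodes autotaxin, was highest at 0.35. ADORA2B, a receptor for the adenosine that NT5E makes, was at 0.33, and ADORA1 at -0.11 on the probe set used and 0.50 on another above the floor.

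The hydrolases that clean the nucleotide pool held DCTPP1, at 690.7 with MPA and 1351 in DMSO control, a log2 difference of -0.97, the lowest of all 44 genes, and ITPA at 0.17. Ribonucleotide reductase and its partners were lower in 5 of 6 cases, beside 49.7% of all genes, with RRM1 at -0.51. RRM2B, the p53-inducible subunit, was the exception at 1716 with MPA and 714.6 in DMSO control, the highest of the 44 on the probe sets used. Among the lower ones, TYMS was at -0.20 with MPA, -0.21 with guanosine alone and -0.25 with both compounds, relative to DMSO control. Its lower value was thus not particular to the MPA array. The other members of the 5′-nucleotidase family ran from -0.03 for NT5DC1 to 0.15 for NT5DC3 with MPA on the probe sets used, and another NT5DC1 probe set above the floor was at 0.40.

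**Figure D4:**
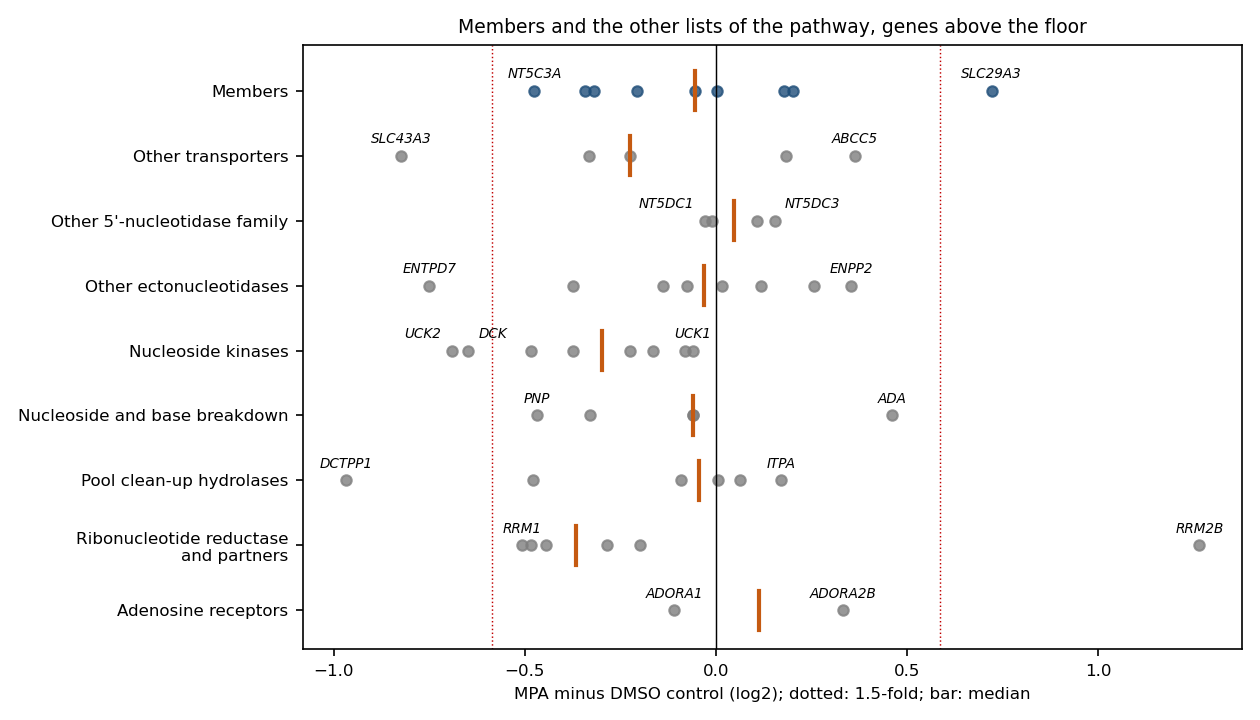
MPA minus DMSO control (x axis, log2) for each of the 9 members and of the 44 other pathway genes above the floor, by list (y axis), with the median as a bar and 1.5-fold as dotted lines. The kinases all lie below 0 on the probe sets used, DCTPP1 is furthest left at -0.97 and RRM2B furthest right at 1.26.

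With guanosine alone, with both compounds against DMSO control, and with both against guanosine alone, 0 of these 44 genes passed 1.5-fold, beside 0.497%, 0.637% and 0.0189% of all genes. AMPD3, an AMP deaminase, was highest with guanosine alone at 0.44 and RRM2 lowest at -0.37. TK2, the mitochondrial thymidine kinase, was highest with both compounds, at 0.49 against DMSO control and 0.33 against guanosine alone, though its 2 other probe sets above the floor gave 0.22 and -0.11, and 0.02 and 0.09. In the same comparisons the lowest were RRM2 at -0.31 and RRM2B at -0.10. With both compounds against MPA, 6 of 44 were at least 1.5-fold higher and 1 lower, with a median of 0.10, beside 13.6% of 10956 genes, 966 of them higher and 523 lower. The higher ones were ENTPD7 at 1.17 (from below the floor with MPA), SLC43A3 at 0.94, DCTPP1 at 0.81, AMPD3 at 0.78, UCKL1 at 0.62 (-0.40 on another probe set) and DCK at 0.59, and the lower one was RRM2B at -1.34.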

How the data were processed

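The deposited values are probe set intensities on the linear scale, made by the authors with RMA, which subtracts background, quantile-normalises arrays and summarises probes by median polish, per the labels' signal name. Its software and settings are not given in the sources available. Quantile normalisation hides a change in total mRNA per cell. Of 49395 probe sets, 102 were controls, and of the rest 44988 had 1 gene symbol in the platform table, 1832 several and 2473 none listed. From the intensities, log2 values and differences between arrays were computed with Python 3.11.15 and pandas 2.3.3. Differences were counted at 1.5-fold. Counting was checked only on simulated data, with noise from the most alike pair of arrays and genes well above the floor. That check does not cover dim members such as NT5M. Alternatives were the median probe set, _x_at probe sets kept, the probe set with the largest spread, no floor, a floor at the 75th percentile, cyclic loess (limma 3.58.1, 3 iterations), 2-fold, and log2(signal + 16). The text names all members with their probe sets, the highest and lowest genes of the other pathway lists and those past 1.5-fold, and the 3 genes nearest to a member past 1.5-fold with MPA. Of the genes of those lists, 3 are not analysed here. The members and lists were chosen with earlier results of these data known. The number of arrays, 1 per condition, limits the precision of every value.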

Additional observations from a re-analysis of the deposited data

How the results depend on the processing

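No paired analysis was possible because each condition has 1 array, and for the same reason no array could be left out. For both MPA against DMSO control and MPA + guanosine against MPA, the count of members past 1.5-fold was 1 of 9, SLC29A3. Beside it stood 12.9% and 13.6% of all genes in turn. With probe sets summarised by their median it was 0 of 8, beside 11.7% and 12.1%. At 2-fold it was 0 of 9, beside 3.15% and 3.19%. The probe set of largest spread gave 2 of 7, adding NT5E, beside 19.0% and 21.0%, so the share over all genes rose too. The remaining alternatives run, namely _x_at probe sets kept, no floor, a floor at the 75th percentile and cyclic loess, left the count at 1. All 9 genes were already above the floor, so dropping it could not change the count. SLC29A3 has no _x_at probe set, so keeping those could not change its value. The floor at the 75th percentile left 4 members to count. The members' median moved by more than 0.1 in these cases: with MPA against DMSO control it was -0.21 with _x_at probe sets kept; with guanosine against DMSO control it was 0.16 under a floor at the 75th percentile, over 3 members; and with MPA + guanosine against MPA it was 0.21 with the probe set of largest spread and 0.27 under the floor at the 75th percentile. Of 225 recomputed member differences, which repeat each gene and comparison over several settings, 31 moved by more than 0.1 and 20 changed sign. None of those 20 was past 1.5-fold to begin with (0 of 10), and the largest of them was 0.21. The 10 are all SLC29A3, in 2 comparisons that share the MPA array, repeated over the settings. NT5C, NT5C3A and NT5M have 1 probe set each, so settings that choose among probe sets could not change them. For SLC29A3 with MPA, the median over its 2 probe sets, of which 1 was below the floor, gave 0.41. Members with signals near the floor of 63.0, such as NT5M, are the least certain.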
